A study of Rattus norvegicus with 28 samples.

Results

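The genes described here are 9 genes of blood coagulation and fibrinolysis in the rat aorta, Tfpi, Tfpi2, F3, Thbd, Procr, Vwf, Plat, Plau and Plaur, of 11750 genes tested. They were taken by name as the genes whose array probe set carried that 1 gene symbol, and each was measured by 1 probe set. They were chosen by name with their low minus high WSS differences in these pools known, so their own differences are given as a description with no test. The expression of mRNA was measured in the whole aortic wall (intima, media and adventitia together) of untreated male Wistar rats. The low wall shear stress (low WSS) region was the distal part of the lesser curvature of the aortic arch, and the high WSS region lay on the greater curvature, downstream of where the left subclavian artery leaves. Pieces of each region from 5 rats were pooled, so that 70 animals gave 28 pools in 14 pairs, 14 pools from the low WSS region and 14 from the high WSS region, with 1 array per pool. By the methods, a pair holds the pieces of both regions from the same animals. A value belongs to a pool and not to a rat, and the regions differ in place along the aorta as well as in flow, which cannot be told apart. Levels are log2 intensities, on which a difference of 1 is a doubling, and they are set side by side only within a gene. A pool is bulk tissue, and fewer cells of a type and less RNA per cell cannot be told apart in it.

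Coagulation starts when tissue factor, encoded by F3 and held on the cells of the adventitia and media, meets factor VII of the plasma. Tissue factor pathway inhibitor, encoded by Tfpi, blocks that complex together with factor Xa. On the endothelium, thrombomodulin (Thbd) and the endothelial protein C receptor (Procr) turn thrombin towards activation of protein C, an anticoagulant, while von Willebrand factor (Vwf) binds platelets to the wall. Fibrin is dissolved by plasmin, which tissue plasminogen activator (Plat) and urokinase (Plau, bound by its receptor Plaur) make from plasminogen.

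Promoter sequences from RefSeq (build GRCr8), from 250 bases before to 50 bases after the start of transcription, were matched for 5 of the 9 genes, with 6 promoters in all. The promoters of Tfpi are shown because Tfpi had the largest difference of the 9 genes in size, and that of Plau because Plau lay on the other side. The bases in capitals are matches to CACCC or its reverse complement GGGTG, the core to which Krüppel-like factors bind. They lie at chr3:89980675-89980974 and chr3:89983494-89983793 for Tfpi and at chr15:3511938-3512237 for Plau, each on the minus strand.
Tfpi, first promoter: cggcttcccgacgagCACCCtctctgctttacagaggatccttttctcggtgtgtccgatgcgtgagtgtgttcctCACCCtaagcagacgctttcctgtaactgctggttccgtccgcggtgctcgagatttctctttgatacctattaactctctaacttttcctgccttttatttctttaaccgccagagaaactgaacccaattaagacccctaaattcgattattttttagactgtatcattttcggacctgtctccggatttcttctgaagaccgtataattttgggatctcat
Tfpi, second promoter: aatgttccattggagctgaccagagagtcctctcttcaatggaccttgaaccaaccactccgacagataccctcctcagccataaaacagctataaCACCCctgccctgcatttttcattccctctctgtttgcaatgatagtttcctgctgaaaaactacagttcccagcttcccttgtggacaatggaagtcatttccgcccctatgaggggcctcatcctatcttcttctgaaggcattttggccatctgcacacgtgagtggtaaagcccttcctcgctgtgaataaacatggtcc
Plau: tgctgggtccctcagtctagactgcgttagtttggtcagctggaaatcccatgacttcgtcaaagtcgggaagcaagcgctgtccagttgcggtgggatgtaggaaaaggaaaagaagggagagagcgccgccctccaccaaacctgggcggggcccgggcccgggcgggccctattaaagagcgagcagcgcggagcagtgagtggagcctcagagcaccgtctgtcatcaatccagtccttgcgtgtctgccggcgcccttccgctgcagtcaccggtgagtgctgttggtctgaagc
The first Tfpi promoter held 2 matches to CACCC and the second held 1, whereas the Plau promoter held 0. Of 33469 promoters of the same length, 54.9% held CACCC or its reverse complement, so a match is common. None of these 3 promoters held the AP-1 site TGACTCA (4.63% of all promoters), the shear stress response element GAGACC (16.5%) or the TATA box TATAAA (14.2%), each searched on both strands. Among the other promoters, that of Tfpi2 held CACCC at 2 places, that of Procr held CACCC, the AP-1 site and the shear stress response element, and that of Plaur held CACCC and the AP-1 site. A match is a run of letters, and no binding was measured.

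Of the 9 genes, 4 had an adjusted p under 0.05 in the fit over all genes (limma with the pair as a block, Benjamini-Hochberg), where 41.7% of all genes did. Plat, Plau and Thbd were higher in low WSS (3 genes, against 19.7% of all genes) and Tfpi was lower (1 gene, against 22% of all genes). The other 5 genes did not pass. In pairs 4 to 14 alone 6 genes passed, where 41.3% of all genes did, with 2 higher in low WSS (18.1% of all genes) and 4 lower (23.2%). They were not the same genes, since Thbd and Plau were lost and F3, Procr, Vwf and Plaur were gained, while Tfpi and Plat remained. Thbd was also lost without pair 2, 3 or 10 and with no pair in the fit. The median difference of low minus high WSS was -0.15 over the 9 genes and -0.01 over all genes. Low WSS and high WSS pools (14 each) did not separate fully for any of the 9 genes, as they did for 1.13% of all genes. Only Tfpi and Plat differed in the same direction in all 14 pairs, which held for 9.22% of all genes.

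**Figure D1:**
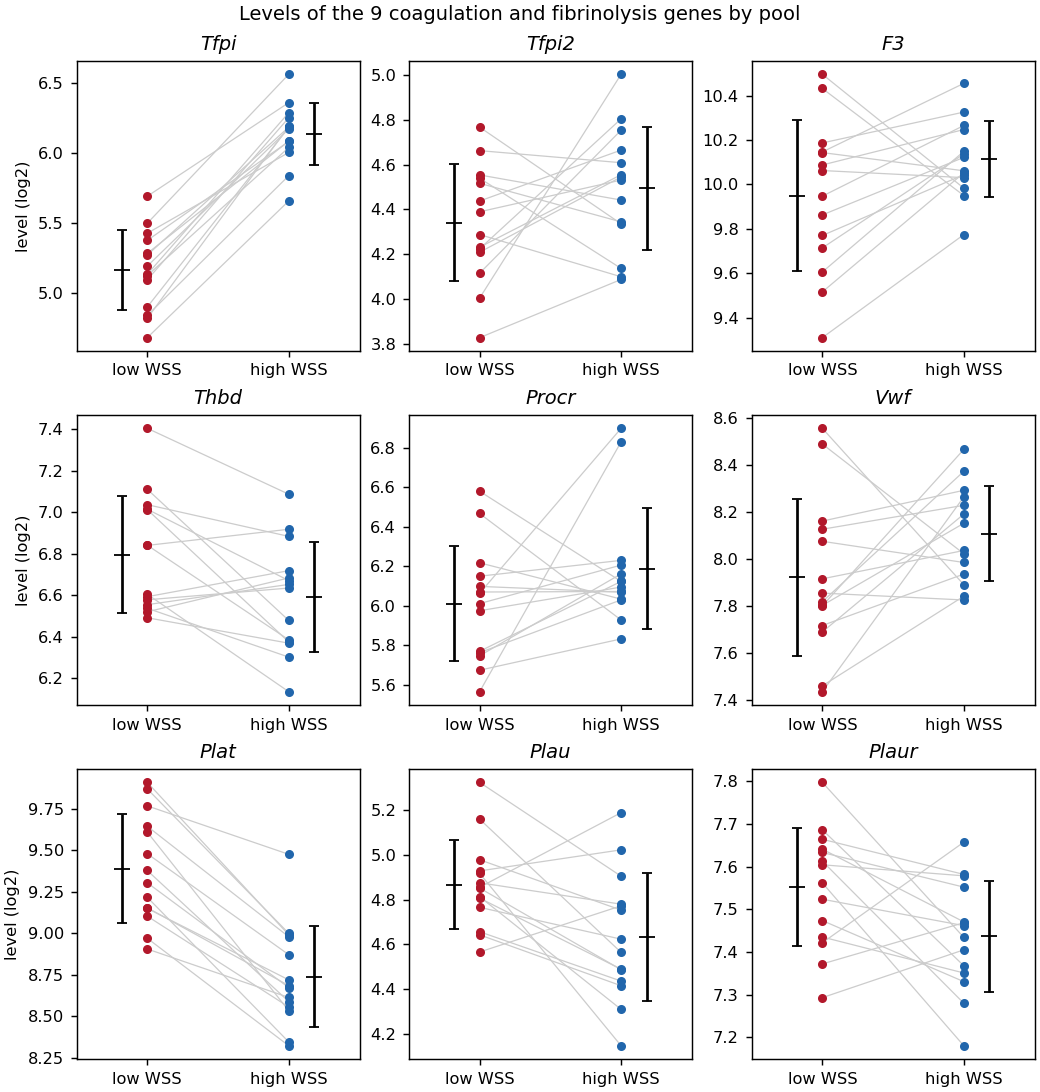
Log2 level of each of the 9 genes (vertical axis, its own range per panel) in low WSS pools (red, left) and high WSS pools (blue, right), with grey lines joining the 2 pools of a pair and bars for the mean and SD (n = 14 each). Tfpi was lower in the low WSS pool of all 14 pairs and Plat was higher in all 14, while the lines cross for the other genes.

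Tfpi was the gene of the set with the largest difference. Its level had a lowest, median and highest value of 4.68, 5.16 and 5.69 in the low WSS pools, against 5.66, 6.18 and 6.56 in the high WSS pools. Of the 14 low WSS pools, 13 lay below the lowest high WSS pool, and the exception, low WSS pool 3, overlapped with high WSS pool 6 alone. The mean was 5.17 ± 0.29 in low WSS and 6.14 ± 0.22 in high WSS (SD, n = 14 each), a difference of -0.97 (SE 0.06), which is 1.96-fold lower in low WSS. The difference lay between -1.37 (pair 11) and -0.58 (pair 7) in the pairs, and between -0.999 and -0.938 when each pair was left out in turn.

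Tfpi2, a related Kunitz-type inhibitor of plasmin and other proteases that is secreted into the matrix, had no such pattern. Its levels were 4.34 (3.83 to 4.77) in the low WSS pools and 4.54 (4.09 to 5.00) in the high WSS pools (median and range), and the groups overlapped over most of that range. The low WSS pool was lower in 8 of 14 pairs, with a mean difference of -0.15 (SE 0.10). The pairs ran from -0.996 in pair 13 to 0.43 in pair 1, and without pair 13 the difference was -0.09. Both regions lay close to the level of 4 that was used as the lower limit, so the precision of Tfpi2 is limited.

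F3, the initiator of coagulation, differed in its spread more than in its mean over all 14 pairs. The lowest, median and highest levels were 9.31, 10.01 and 10.50 in the low WSS pools, against 9.77, 10.09 and 10.46 in the high WSS pools. The low WSS pools thus reached further down as well as slightly higher, and their SD was 1.99 times that of the high WSS pools (0.34 and 0.17). The mean difference was -0.17 (SE 0.08), with the low WSS pool lower in 10 of 14 pairs. Both the spread and the mean depended on pairs 1 to 3. The highest low WSS pools were pool 2 (10.50) and pool 3 (10.43), and in pairs 4 to 14 alone the mean difference was -0.31 (SE 0.05).

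Of the protein C pathway, Thbd and Procr differed in opposite directions in the mean. Thbd, the thrombin cofactor, had levels of 6.49, 6.72 and 7.40 in the low WSS pools and 6.13, 6.64 and 7.09 in the high WSS pools (lowest, median and highest). The groups overlapped widely, the low WSS pool was higher in 9 of 14 pairs and the mean difference was 0.20 (SE 0.07). Procr, the receptor that presents protein C to thrombomodulin, had levels of 5.57, 6.04 and 6.58 in the low WSS pools and 5.83, 6.11 and 6.90 in the high WSS pools. The low WSS pool was lower in 10 of 14 pairs, with a mean difference of -0.18 (SE 0.11). That mean rested on few pairs, since the differences were -1.26 in pair 6 and -0.83 in pair 4, and without pair 6 the mean was -0.09.

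Vwf, the platelet adhesion protein of endothelial cells, had levels of 7.43, 7.84 and 8.55 in the low WSS pools and 7.82, 8.09 and 8.46 in the high WSS pools. The low WSS pools lay on both sides, with 7 below the lowest high WSS pool and 2 above the highest. The mean difference was -0.19 (SE 0.10), with the low WSS pool lower in 10 of 14 pairs.

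Of the fibrinolysis genes, Plat carried the largest difference and all 3 were higher in the mean in low WSS. Plat, the main plasminogen activator of the vessel wall, had levels of 8.91, 9.34 and 9.91 in the low WSS pools, against 8.32, 8.68 and 9.48 in the high WSS pools. In low WSS 6 pools lay above the highest high WSS pool, and the other 8 lay within the range of the high WSS pools. The mean was 9.39 ± 0.33 in low WSS and 8.74 ± 0.30 in high WSS (SD, n = 14 each), a difference of 0.65 (SE 0.06), which is 1.57-fold higher in low WSS. The pairs ran from 0.29 (pair 7) to 1.08 (pair 3), and the difference was 0.62 to 0.68 when each pair was left out in turn.

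Plau, the activator that acts mainly on cell surfaces, had levels of 4.57, 4.85 and 5.32 in the low WSS pools and 4.15, 4.59 and 5.19 in the high WSS pools. All but 1 low WSS pool lay within the range of the high WSS pools. The low WSS pool was higher in 11 of 14 pairs, by 0.23 in the mean (SE 0.07). Plaur, its receptor, had levels of 7.29, 7.58 and 7.80 in the low WSS pools and 7.18, 7.45 and 7.66 in the high WSS pools, again with wide overlap. The low WSS pool was higher in 11 of 14 pairs, by 0.11 in the mean (SE 0.05), the smallest difference of the 9 genes in size.

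The difference of most genes was not the same over the 14 pairs. In pairs 1, 2 and 3, F3, Vwf and Procr were higher in low WSS, with mean differences of 0.36, 0.41 and 0.39, whereas in pairs 4 to 14 they were lower, with means of -0.31 (SE 0.05), -0.35 (SE 0.07) and -0.33 (SE 0.10). Thbd and Plau were higher by 0.58 and 0.62 in pairs 1 to 3 and by 0.10 (SE 0.06) and 0.13 (SE 0.07) in pairs 4 to 14. Tfpi and Plat kept their directions, with -0.87 and 0.84 in pairs 1 to 3 and -0.99 and 0.60 in pairs 4 to 14, although Plat was smaller in pairs 4 to 14. Tfpi2 changed sign too, with 0.24 in pairs 1 to 3 and -0.26 (SE 0.10) in pairs 4 to 14. The means over all pairs of F3, Vwf, Procr, Thbd, Plau and Tfpi2 thus depended on pairs 1 to 3. Over all genes, the deviations of the 2 pools of a pair from the means of their regions had r of 0.23 to 0.48 in pairs 4 to 14, but of -0.01 to 0.04 in pairs 1 to 3. The data thus give no sign that pools 1 to 3 of the regions were pairs, and their differences are those of pools with the same number.

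**Figure D2:**
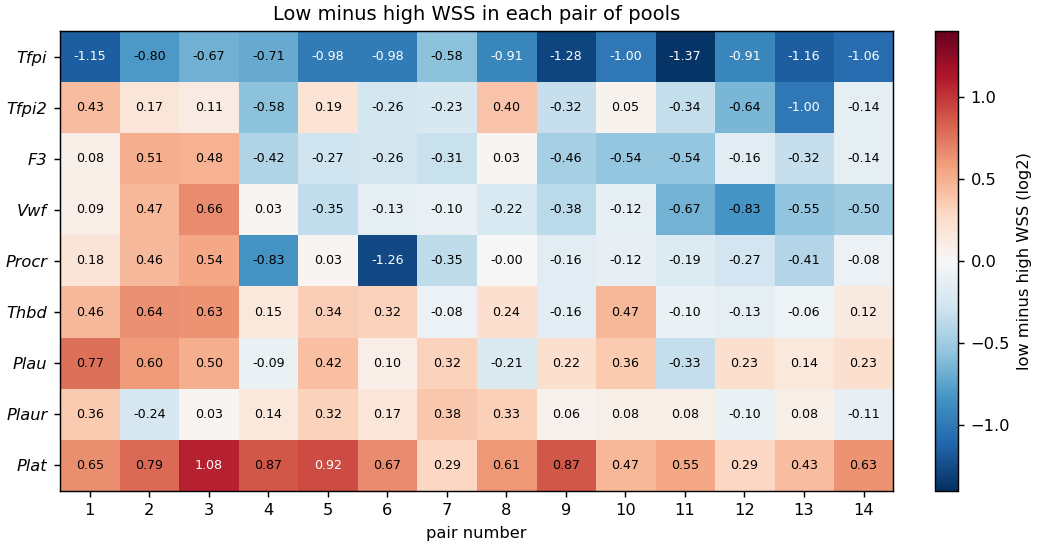
Difference of the log2 level, low minus high WSS, for each of the 9 genes (rows) in each of the 14 pairs (columns), with blue for lower and red for higher in low WSS. The Tfpi row is blue and the Plat row red throughout, and in the F3, Vwf and Procr rows pairs 1 to 3 are red while most of pairs 4 to 14 are blue.

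Markers of other cell types moved with those pairs. The mean over the 14 adipocyte genes tested was 8.73, 8.68 and 8.48 in low WSS pools 1 to 3, against 7.04, 5.82 and 6.24 in high WSS pools 1 to 3, and over all pools it ran from 5.86 to 9.00 in low WSS and from 5.79 to 8.96 in high WSS. The mean over the 16 endothelial genes was 6.66 to 6.78 in low WSS pools 1 to 3 and 5.82 to 5.96 in high WSS pools 1 to 3. In the same pools the myeloid mean was 6.47 to 6.57 in low and 5.82 to 5.97 in high WSS. The fibroblast mean was 10.54 to 10.60 in low and 10.09 to 10.29 in high WSS. The smooth muscle mean was lower in low WSS, at 11.07 to 11.12 against 11.34 to 11.44. Only the mesothelial means overlapped, at 4.30 to 4.46 and 4.37 to 4.58. In pairs 4 and 6, in which the difference of Procr was lowest, the adipocyte mean was 7.44 and 6.01 in the low WSS pools and 8.96 and 7.69 in the high WSS pools. With the adipocyte mean as a covariate the differences were -0.25 for F3, -0.32 for Procr, -0.26 for Vwf, 0.18 for Thbd and 0.16 for Plau, against -0.99 for Tfpi and 0.65 for Plat. With the endothelial mean they were -0.16 for F3, -0.17 for Procr, -0.18 for Vwf, 0.21 for Thbd and 0.24 for Plau, against -0.97 for Tfpi and 0.65 for Plat. The endothelial mean itself differed by only -0.015 between the regions over the 14 pairs, since its pair differences of -0.64 to 0.84 nearly cancelled. The differences with it as a covariate were thus bound to stay close to those without it, and they cannot show the part of endothelium. Thbd and Plau no longer passed with the adipocyte mean, whereas F3, Procr and Vwf did, where 4786 of 11750 genes passed. These calls are a description, since the 9 genes were chosen with their differences known. The part of fat, endothelium or any other of these cell types in the results for F3, Procr, Vwf, Thbd and Plau was not tested.

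Over all pairs, none of the 16 endothelial genes passed in either direction (limma, adjusted p under 0.05; list mean -0.02, SE 0.14), nor did any of the 4 mesothelial genes, whose levels of 4.01 to 5.46 lay near the lower limit. By the same fit 41.7% of all genes passed, 19.7% higher and 22% lower. The endothelial list mean of -0.02 came from pair differences of both signs, from -0.64 (pair 11) to 0.84 (pair 1). They were positive in pairs 1 to 3, 7 and 8 and negative in the other pairs. Equal endothelial levels within the pairs thus cannot be read from that mean. Of the smooth muscle genes 1 was higher and 5 were lower of 12, with all 12 at levels of 9.79 to 12.44, and of the fibroblast genes 3 were higher and 3 lower of 11. Of the adipocyte genes 2 were higher and 1 lower of 14, and of the myeloid genes 4 were higher and 1 lower of 11. Of the 6 platelet genes, 4 were lower and 0 higher, and their mean was lower in all 14 pairs (-0.21, SE 0.03). Their levels of 4.06 to 4.89 also lay near the lower limit, which limits what this difference can show.

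Within a region, where the choice of the genes used no information, the level of each gene was set against the mean of 6 cell type lists. None of 108 relations passed an adjusted p of 0.05 by Pearson's r, and none by Spearman's rho (permutation test, 2-sided), while 33 had an unadjusted p under 0.05. The closest were Thbd with the myeloid list in the low WSS pools (r = 0.79, rho = 0.79, permutation p = 0.00117, adjusted p = 0.0668, n = 14; r = 0.78 without the 2 pools farthest from the median) and Vwf with the endothelial list in the low WSS pools (r = 0.76, rho = 0.76, permutation p = 0.00133, adjusted p = 0.0668; r = 0.67 without 2 pools). In the high WSS pools the same relations had r = 0.60 for Thbd (0.51 without 2 pools) and r = 0.30 for Vwf (0.74 without 2 pools), so that the lower r of Vwf there rested on 2 pools. Among the 9 genes themselves, none of 72 relations within a region passed (12 at an unadjusted p under 0.05, smallest adjusted p = 0.190, permutation test), the closest being Thbd with Vwf in the low WSS pools (r = 0.69, rho = 0.77).

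The differences of the pairs were also set against those of the lists. The genes were chosen with these differences known, so the relations are given as a description with no test. F3 with the fibroblast list had the highest r of the 54 relations, with r = 0.97 and rho = 0.92 (n = 14 pairs), and r = 0.92 without the 2 pairs farthest from the median. In pairs 4 to 14 alone it was r = 0.89 and rho = 0.85 (n = 11 pairs). In each of the 9 pairs in which the fibroblast list was lower in low WSS, F3 was lower as well, and in pair 14 F3 alone was lower. Within a region the same relation had r = 0.73 in the low WSS pools and r = 0.52 in the high WSS pools, and neither passed (adjusted p = 0.0668 and 0.175, permutation test).

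**Figure D3:**
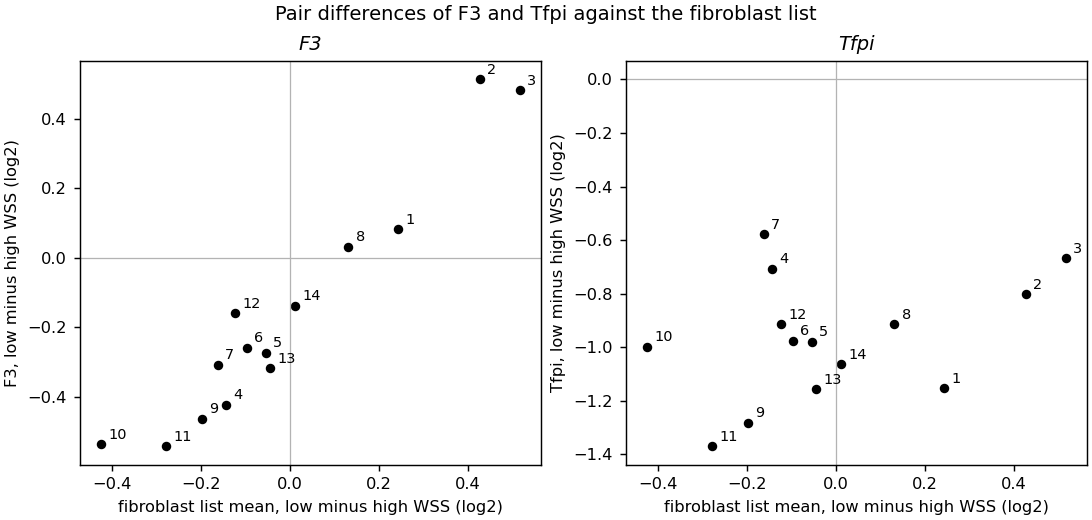
Difference of F3 (left) and of Tfpi (right) in each pair, low minus high WSS on the log2 scale (vertical axis), against that of the mean of 11 fibroblast genes (horizontal axis), with the pair number beside each point. The F3 points follow a line (r = 0.97) and the Tfpi points do not (r = 0.35).

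F3 also had high r with the endothelial (r = 0.86), myeloid (r = 0.82) and smooth muscle lists (r = -0.70). These were r = 0.55, 0.48 and -0.34 in pairs 4 to 14 alone. Procr with the adipocyte list had r = 0.74 (0.53 in pairs 4 to 14) and Vwf with the endothelial list had r = 0.74 (0.25 in pairs 4 to 14). By rank these relations were weaker, with rho = 0.46 for Procr (0.06 in pairs 4 to 14) and 0.56 for Vwf (0.11 in pairs 4 to 14). Pairs 1 to 3 thus carried part of each, and in pairs 4 to 14 the r of Procr was not matched by its rho. For Tfpi, r with the 6 lists ran from -0.50 (mesothelium) to 0.48 (myeloid). In pairs 4 to 14 alone it ran from -0.38 (mesothelium) to 0.63 (myeloid), with 0.54 for the endothelial list.

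For each gene the genes with the most alike pattern were taken, by the highest Pearson's r over the 28 pools after the mean of each region was taken off, as a description with no test. For Tfpi they were Arhgap5 (r = 0.77), Tbc1d15 (0.75), Selenot (0.74), Ift74 (0.73) and Resf1 (0.72). For Plat they were Corin (0.88), which encodes the protease that activates atrial natriuretic peptide, Brip1 (0.87) and Stmn1 (0.85). For Thbd they were Rps6ka2 (0.88), Prtfdc1 (0.85) and Rbck1 (0.84). For F3 they were Gsn (0.82), which encodes the actin-severing protein gelsolin, Clic2 (0.79) and Plxdc1 (0.76), and for Vwf they were Ace (0.76), Mmrn2 (0.71) and Arrb1 (0.71), of which Mmrn2 is in the endothelial list. Procr was closest to Car2 (0.81), Tfpi2 to Cd55 (0.78), Plau to Pde6d (0.75) and Plaur to Hspbp1 (0.66). The r of the closest gene was thus lowest for Plaur, the gene with the smallest difference.

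The rest of the pathway was described with 58 further genes in 6 lists, of which 50 had a probe set with 1 symbol and 30 were tested. Of these 30, 9 rose and 7 fell in low WSS and 14 did not pass. The share that passed was 53.3%, against 41.7% of all genes. The lists were chosen with earlier results of these data known. Their counts and adjusted p-values, here and below, are thus a description and no independent test. Most of the factors that the liver secretes, such as prothrombin (F2), the fibrinogen chains (Fga, Fgb, Fgg) and plasminogen (Plg), had a mean level under 4 and were not tested.

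**Figure D4:**
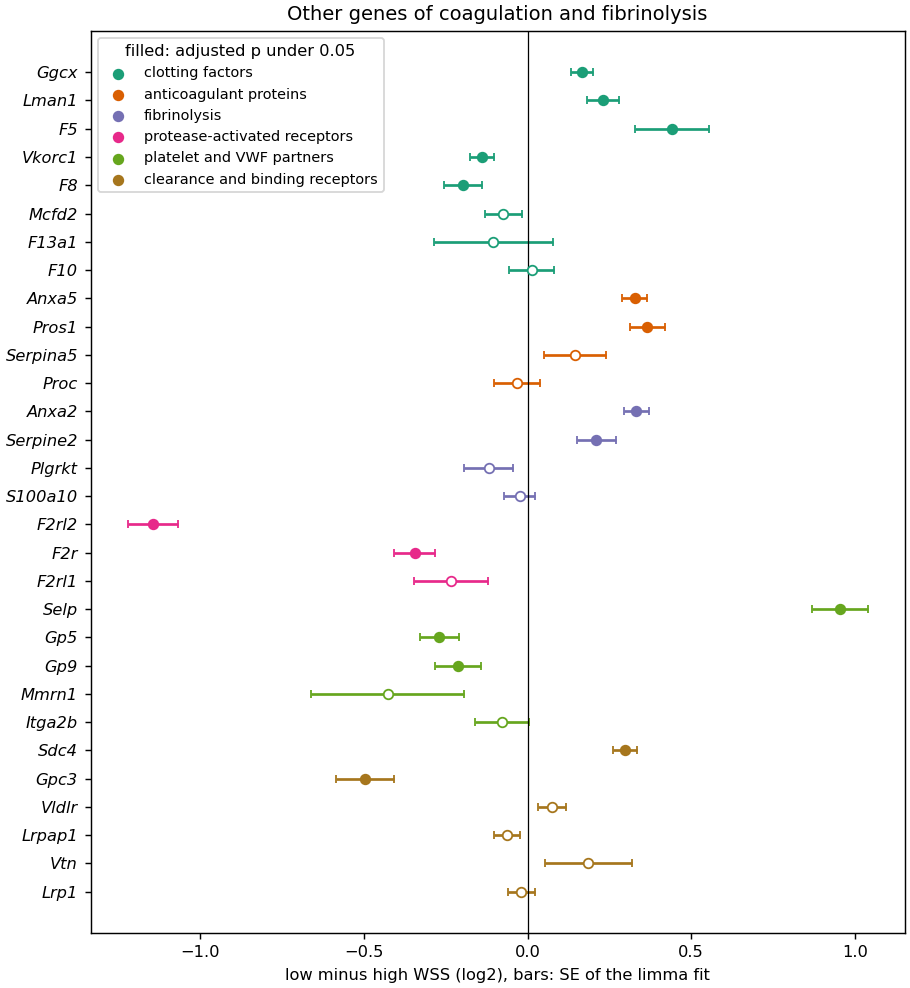
Difference of the log2 level, low minus high WSS (horizontal axis), for the 30 further genes tested (rows, coloured by list), with bars for the SE of the limma fit and filled points for an adjusted p under 0.05. F2rl2 lies farthest to the left and Selp farthest to the right.

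Among the protease-activated receptors, through which thrombin and other proteases signal, 2 of 3 fell and none rose. F2rl2, a thrombin-binding receptor of the family, had levels of 5.80, 6.03 and 6.28 in the low WSS pools, against 6.76, 7.18 and 7.61 in the high WSS pools. The groups did not overlap, as was the case for 0.502% of all genes in this direction, and the low WSS pool was lower in all 14 pairs. The difference was -1.14 (SE 0.08; limma, adjusted p = 1.13e-08), which is 2.21-fold lower in low WSS. F2r, the main thrombin receptor of vascular cells, fell by 0.35 (SE 0.06; limma, adjusted p = 0.000321) and was lower in 12 of 14 pairs. F2rl1, the receptor cleaved by trypsin-like proteases, differed by -0.23 (SE 0.11) and did not pass (limma, adjusted p = 0.104), although it did in pairs 4 to 14 alone (-0.41, limma, adjusted p = 0.00346).

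Among the platelet and VWF partners 1 of 5 rose and 2 fell. Selp, which encodes P-selectin, stored with VWF in the endothelium and in platelets, had levels of 5.25, 5.51 and 6.26 in the low WSS pools, against 4.31, 4.57 and 5.03 in the high WSS pools. Here too the groups did not overlap, as for 0.63% of all genes in this direction. The difference was 0.95 (SE 0.09; limma, adjusted p = 2.31e-07), which is 1.94-fold higher in low WSS, and the low WSS pool was higher in all 14 pairs. Gp5 (-0.27, limma, adjusted p = 0.00153) and Gp9 (-0.21, adjusted p = 0.024), subunits of the platelet receptor for VWF, fell at levels near 4, and both are also in the platelet list above. The Gp9 call was lost when the arrays were centred on their medians (adjusted p = 0.0645, limma) and in 5 further alternatives. Mmrn1, a factor V-binding protein of platelets and endothelium, differed by -0.43 (SE 0.23; limma, adjusted p = 0.154).

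**Figure D5:**
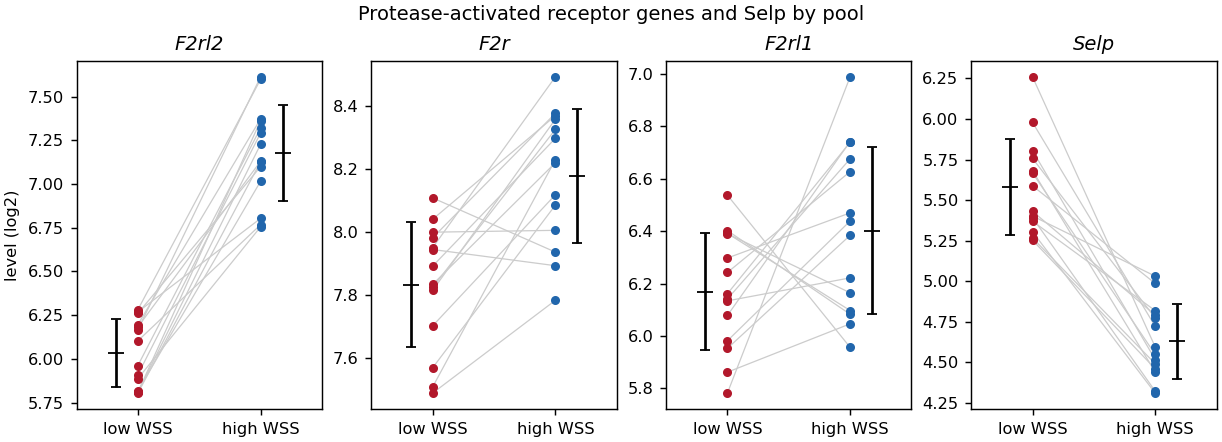
Log2 level (vertical axis, its own range per panel) of F2rl2, F2r, F2rl1 and Selp in low WSS pools (red, left) and high WSS pools (blue, right), with lines joining the pools of a pair and bars for the mean and SD (n = 14 each). For F2rl2 and Selp the groups do not overlap, whereas they do for F2r and F2rl1.

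Among the anticoagulant proteins 2 of 4 rose and none fell. Anxa5, which shields anionic phospholipid, rose by 0.33 (SE 0.04; limma, adjusted p = 3.06e-06) and was higher in all 14 pairs. Pros1, the protein S cofactor of protein C and of Tfpi, rose by 0.37 (SE 0.05; limma, adjusted p = 3.75e-05) in 13 of 14 pairs. Serpina5, the protein C inhibitor, differed by 0.14 (SE 0.09) and Proc, protein C, by -0.03 (SE 0.07), and neither passed.

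Among the further genes of fibrinolysis 2 of 4 rose and none fell. Anxa2, which assembles plasminogen and its activator on cell surfaces, rose by 0.33 (SE 0.04; limma, adjusted p = 3.37e-06) and was higher in all 14 pairs. Its partner S100a10 differed by -0.02 (SE 0.05) and did not pass. Serpine2, an inhibitor of thrombin and of the plasminogen activators, rose by 0.21 (SE 0.06; limma, adjusted p = 0.00916), and Plgrkt, a plasminogen receptor, differed by -0.12 (SE 0.07) and did not pass.

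Among the clotting factors and the proteins that make them, 3 of 8 rose and 2 fell. Ggcx, the vitamin K-dependent carboxylase, rose by 0.17 (SE 0.03; limma, adjusted p = 0.000849), whereas Vkorc1, which recycles vitamin K, fell by 0.14 (SE 0.04; limma, adjusted p = 0.00634). Lman1, a cargo receptor that carries factors V and VIII out of the endoplasmic reticulum, rose by 0.23 (SE 0.05; limma, adjusted p = 0.00126), and Mcfd2, its partner, differed by -0.07 (SE 0.06) and did not pass. Its cargoes differed in opposite directions, since F5 rose by 0.44 (SE 0.11; limma, adjusted p = 0.0042) and F8 fell by 0.20 (SE 0.06; limma, adjusted p = 0.00978). In pairs 4 to 14 alone the difference of F5 was 0.27 and still passed. With the smooth muscle genes Tagln and Cnn1 as covariates, 4 of these genes no longer passed (limma), with differences of 0.14 for Lman1 (adjusted p = 0.120), 0.25 for F5 (0.220), -0.06 for Vkorc1 (0.380) and -0.16 for F8 (0.169). The difference of F8 thus stayed near its size, while that of Vkorc1 was the most reduced.

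Among the clearance and binding receptors 1 of 6 rose and 1 fell. Sdc4, a heparan sulphate proteoglycan of the cell surface, rose by 0.30 (SE 0.04; limma, adjusted p = 7.77e-06) and was higher in all 14 pairs. Gpc3, a glypican with the same kind of chains, fell by 0.50 (SE 0.09; limma, adjusted p = 0.000251) and was lower in all 14 pairs. Lrp1 and Vldlr, endocytic receptors that take up complexes of proteases with their inhibitors, differed by -0.02 (SE 0.04) and 0.07 (SE 0.04), and neither passed. Lrpap1 differed by -0.06 (SE 0.04) and did not pass either.

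The median log2 level per array was 4.85 to 4.92 in the low WSS pools and 4.88 to 5.00 in the high WSS pools, and r between arrays was 0.979 to 0.996. RMA brings the probe intensities of the arrays to the same distribution, so a shift in total mRNA per cell would not appear. The values per probe set are made after that step, and their medians still differed somewhat between arrays. When the arrays were centred on their medians, 62.4% of the probe sets called were higher in low WSS, against 48.5% without centring.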

How the data were processed

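Levels of mRNA were measured on Affymetrix Rat Gene 1.1 ST arrays in 28 pools of aortic wall. The deposited values are log2 intensities, which the authors made with RMA (background correction, normalization to a common distribution, 1 value per probe set) with an annotation on build rn4, and no correction for batch or pair is stated in the sources used here. Arrays give no count, so the number of arrays limits the precision. Of 29214 probe sets, 18644 had 1 gene symbol, 962 several and 9608 none in the platform annotation. As in the methods, only probe sets with a symbol and a mean level of at least 4 were tested, 13383 in all (11750 genes with 1 symbol). A gene with several probe sets was represented by that with the highest mean.

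Low was compared with high WSS by limma 3.58.1 (R 4.3.3) with the pair as a block, and p-values were adjusted by Benjamini-Hochberg over all probe sets tested. The labels' replicate number was taken as the pair, since the methods state that pieces of the same animals gave both pools. The deviations of paired pools had r of 0.23 to 0.48 in pairs 4 to 14 and of -0.01 to 0.04 in pairs 1 to 3, so for pairs 1 to 3 the pairing rests on the labels and methods alone. Correlations used permutation tests with 100000 resamples (Python 3.11.15). The fit was tested on simulated data. The members and all lists were chosen with earlier results of these data known, and the promoter motifs with the sequences in view. Named were all members and, in each list, every gene past the threshold and up to 4 with the smallest adjusted p. Also named were the 3 genes (5 for Tfpi) most alike each member, with the closest alone for Procr, Tfpi2, Plau and Plaur. Mcfd2, Lrp1 and some genes that were not tested were named besides. Alternatives were the methods' paired t-test, no block, trend and robust estimation, other filters, centring and quantile normalization, covariates, pairs 4 to 14 alone and each pair left out.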

Additional observations from a re-analysis of the deposited data

How the results depend on the processing

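Among all probe sets 5644 were called, and the number was 4856 with no replicate block, 5440 by the methods' paired t-test, 3492 with Tagln and Cnn1 as covariates and 5212 to 5845 when each pair was left out in turn. Without the replicate block the pathway lists had 8 genes higher and 7 lower in low WSS, against 9 and 7 with it, and Serpine2 was the call that was lost (limma, adjusted p = 0.0783). When each pair was left out, 9 to 10 genes of these lists were higher and 6 to 8 lower. No member changed direction in an alternative that kept it, but their calls changed. The calls of members are a description and no test, since the members were chosen with their differences known. Thbd was lost with no replicate block and, like Plau, with the adipocyte covariate, with Tagln and Cnn1 as covariates and in pairs 4 to 14 alone. Gained were F3 and Vwf with the adipocyte or the endothelial covariate and in pairs 4 to 14, Procr in pairs 4 to 14 and with the adipocyte covariate, and Plaur with centring, with Tagln and Cnn1 and in pairs 4 to 14. Leaving out 1 pair lost Thbd (pair 2, 3 or 10) and gained F3 (pair 2 or 3), Plaur (pair 2) and Vwf (pair 3). A filter at a mean level of 6 left out Tfpi, Tfpi2 and Plau.

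Proc, which did not pass, had a difference of -0.03, which turned to 0.00515 with centring, 0.0111 with quantile normalization, 0.0168 with the adipocyte covariate, 0.0580 with Tagln and Cnn1 as covariates and 0.0705 in pairs 4 to 14 alone, and ran from -0.0632 to 0.0111 when each pair was left out, above 0 without pair 2 or pair 3. S100a10 turned to 0.0137 with centring. Gp9 was lost with centring (limma, adjusted p = 0.0645), quantile normalization (0.0829), the adipocyte covariate (0.0698) and without pair 7 (0.0508), 8 (0.0525) or 10 (0.0519). Serpina5 passed in pairs 4 to 14 alone (limma, adjusted p = 0.00188) and without pair 1 (0.00939). F2rl1 passed without pair 2 (limma, adjusted p = 0.0335), with the adipocyte (0.0392) and endothelial covariates (0.0426) and in pairs 4 to 14 alone, as did Mmrn1 with both covariates (0.0152 and 0.0166) and in these pairs (0.00312), and Vldlr in these pairs (0.0339). The relations of members with cell type lists that passed were 0 within regions, 9 with pair differences and, in an alternative chosen after seeing the data, 1 with pair differences in pairs 4 to 14 alone. The pair differences were in view when the members were chosen, so these 2 counts are no independent test. The causes of these changes were not tested. The dim genes Tfpi2, Plau, Gp5 and Gp9 lie close to the lower limit of the arrays, which limits their precision.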
